A study of Homo sapiens with 36 samples.

Results

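The proteasome subunit genes were taken as every gene whose symbol begins with PSMA, PSMB, PSMC, PSMD or PSME followed by a number, which gave 43 of the 18048 genes with values. Of these, 41 had a mean normalised read count of at least 10 at each of the 3 exposure times, whose values were deposited separately. PSMB11, the beta subunit of the thymic cortex, had 9 reads over the 36 libraries, and PSMA8, the testis-specific alpha subunit, had 1, so neither was tested. The 41 tested members comprised 7 alpha and 7 constitutive beta subunits of the core, 3 inducible beta subunits, 6 ATPases, 3 non-ATPase subunits of the base, 8 lid subunits, 3 chaperones of base assembly and 4 activators.

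RNA was sequenced from EA.hy926, an immortal human line made by fusing umbilical vein endothelial cells with the lung carcinoma line A549, that had been kept with PFOA (perfluorooctanoic acid), a fluorinated surfactant that resists breakdown. For 48 h, cells received 0, 1, 10 or 100 µM PFOA. For 6 or 12 weeks, cells received 0, 1, 10 or 100 nM PFOA. The medium of all 12 groups, controls included, held 0.05% DMSO, no genetic change was made, and each group had 3 libraries labelled as biological replicates. The labels do not say whether the 3 came from separate cultures started apart, so p-values measure the spread between these libraries only, which may in part be technical. All groups come from 1 cell line that carries a carcinoma genome, and no other line was compared.

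The proteasome degrades proteins that carry ubiquitin chains. Its core particle is a barrel of stacked alpha and beta rings: the alpha rings form the gate, and 3 kinds of beta subunit, PSMB5, PSMB6 and PSMB7, cut the peptide chain. The regulatory particle caps the barrel, with a base whose ATPase ring (PSMC) unfolds the substrate and a lid of PSMD subunits that removes ubiquitin. Other PSMD genes encode non-ATPase subunits of the base and chaperones of its assembly. Interferon signalling induces PSMB8, PSMB9 and PSMB10, which take the places of PSMB5, PSMB6 and PSMB7 to form the immunoproteasome, and PSME1 and PSME2, which form an alternative cap. Endothelial cells express both sets.

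Libraries held 17815292 to 19466331 recovered reads. The libraries of a time differed mainly along a single axis, as the first principal component of the tested genes held 78.0% of the variance at 48 h, 83.8% at 6 weeks and 69.2% at 12 weeks. Several libraries stood apart from the rest of their group on that component. Replicate 3 of 10 µM at 48 h scored 120.8 while replicate 2 scored −77.3, and replicate 2 of the 12-week control scored 113.7. At 6 weeks replicate 1 of 1 nM scored −62.0, among the 10 nM and 100 nM libraries (−84.3 to −7.74), while the other two 1 nM libraries scored 63.8 and 116.5 and the controls 18.5 to 113.5. Of 12 endothelial markers, 10 had a mean of at least 10 in each table, while KDR had a mean of 1.39 to 2.34 and CLDN5 lay at or near 0. Of 8 epithelial markers, 5 passed, keratins among them, and CDH1 and CLDN3 lay at or near 0. Of 7 leukocyte markers with values, CD68 and HLA-DRA passed, and PTPRC lay near 0. Since RNA was taken from whole cultures, fewer cells of a kind and less RNA per cell cannot be told apart.

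Among the members, transcript level per length varied widely by gene. Levels are given as RPKM, the recovered reads divided by the library total and by a transcript length. The length is that of the longest protein-coding transcript annotated as principal, so a gene read mainly from shorter transcripts reads low. PSMA7, an alpha subunit, had the highest median over the 36 libraries at 429 RPKM. PSMB7, the catalytic subunit with trypsin-like activity, followed at 375 RPKM, and the lid subunit PSMD8 had 323 RPKM. PSME4, the large nuclear activator, had the lowest at 4.96 RPKM, and PSMD5, a chaperone of the ATPase ring, had 8.83 RPKM. Although all subunits of a ring are present in equal numbers in the particle, the median levels ran from 31.9 to 429 RPKM within the alpha ring, from 63.8 to 375 within the constitutive beta ring and from 26.5 to 245 within the ATPase ring. The inducible subunits had 46.2 (PSMB10), 68.5 (PSMB9) and 74.7 RPKM (PSMB8), each below the constitutive subunit it replaces, at 375, 309.9 and 218 RPKM.

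Upstream sequence was available from RefSeq (GRCh38.p14) for 38 of the 43 members, as 250 bases before to 50 after the transcription start. Each was searched on both strands for 5 motifs: TGACNNNGC and TGAGNNNGC, forms of the antioxidant response element core bound by NFE2L1 and NFE2L2; CCAAT, the NF-Y box; a GAAA repeat with 2 bases between its copies, the core of the interferon-stimulated response element; and a GCGC repeat spaced in the same way, bound by nuclear respiratory factor. The antioxidant forms differ at the fourth letter, so no site counts as both. TGACNNNGC was found in 11 members (28.9%, against 13.6% of all 27305 promoters), TGAGNNNGC in 12 (31.6% against 18.4%), CCAAT in 18 (47.4% against 35.7%), the GAAA repeat in 5 (13.2% against 3.65%) and the GCGC repeat in 6 (15.8% against 8.78%). The 5 with the GAAA repeat were PSMA4, PSMB4, PSMB10, PSME1 and PSME2, of which the last 3 are interferon-inducible. A match describes the letters only and does not show that a factor binds. The 27305 promoters outnumber the 18048 genes with values and were not matched to the members in base composition. The member counts include PSMA8 (GCGC repeat) and PSMB11 (CCAAT), which were not tested. The promoters printed here belong to the constitutive and inducible subunits, the chaperone and the activators whose values are given next. They are printed 5′ to 3′ on the gene's strand with motif matches in capitals.
PSMB5: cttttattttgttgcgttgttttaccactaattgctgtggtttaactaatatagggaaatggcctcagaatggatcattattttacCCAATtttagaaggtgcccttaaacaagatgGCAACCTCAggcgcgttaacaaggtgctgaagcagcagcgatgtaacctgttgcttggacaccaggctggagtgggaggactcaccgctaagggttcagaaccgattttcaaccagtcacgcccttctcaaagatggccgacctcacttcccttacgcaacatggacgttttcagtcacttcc
PSMB9: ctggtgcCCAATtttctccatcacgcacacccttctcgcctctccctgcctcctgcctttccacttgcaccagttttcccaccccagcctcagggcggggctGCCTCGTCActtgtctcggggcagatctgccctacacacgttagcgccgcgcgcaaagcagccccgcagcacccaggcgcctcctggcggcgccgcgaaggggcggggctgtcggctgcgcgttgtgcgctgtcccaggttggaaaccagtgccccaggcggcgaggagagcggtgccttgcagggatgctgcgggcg
PSMB10: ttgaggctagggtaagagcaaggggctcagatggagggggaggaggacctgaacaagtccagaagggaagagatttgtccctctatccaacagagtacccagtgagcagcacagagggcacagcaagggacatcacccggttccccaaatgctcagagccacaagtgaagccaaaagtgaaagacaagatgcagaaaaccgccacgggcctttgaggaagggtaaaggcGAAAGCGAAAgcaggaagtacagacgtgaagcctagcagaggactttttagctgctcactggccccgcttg
PSME1: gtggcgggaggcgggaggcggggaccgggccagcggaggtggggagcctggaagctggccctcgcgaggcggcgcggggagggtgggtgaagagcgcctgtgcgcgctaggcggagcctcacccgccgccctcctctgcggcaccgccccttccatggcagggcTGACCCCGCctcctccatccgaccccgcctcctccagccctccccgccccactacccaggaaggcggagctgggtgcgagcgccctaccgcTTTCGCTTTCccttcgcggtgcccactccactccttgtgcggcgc
PSME2: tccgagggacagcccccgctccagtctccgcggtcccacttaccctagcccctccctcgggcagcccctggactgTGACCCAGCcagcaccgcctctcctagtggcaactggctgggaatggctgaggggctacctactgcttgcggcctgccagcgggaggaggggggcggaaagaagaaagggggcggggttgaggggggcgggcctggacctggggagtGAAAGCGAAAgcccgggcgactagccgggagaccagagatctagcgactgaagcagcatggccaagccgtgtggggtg
PSMD10: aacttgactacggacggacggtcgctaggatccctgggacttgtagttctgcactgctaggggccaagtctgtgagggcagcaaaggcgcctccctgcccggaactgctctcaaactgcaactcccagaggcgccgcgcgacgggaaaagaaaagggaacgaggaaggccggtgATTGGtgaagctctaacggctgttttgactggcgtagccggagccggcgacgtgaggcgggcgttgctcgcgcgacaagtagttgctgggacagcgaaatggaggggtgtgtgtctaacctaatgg
The windows are PSMB5 at chr14:23035171-23035470 on the minus strand, PSMB9 at chr6:32853942-32854241 on the plus strand, PSMB10 at chr16:67936801-67937100 on the minus strand, PSME1 at chr14:24135944-24136243 on the plus strand, PSME2 at chr14:24146561-24146860 on the minus strand and PSMD10 at chrX:108091493-108091792 on the minus strand. The PSMB5 window holds CCAAT and TGAGNNNGC, the latter on the opposite strand. PSMB9 holds CCAAT and, on the opposite strand, TGACNNNGC. PSMB10 holds the GAAA repeat alone, and PSME1 and PSME2 each hold TGACNNNGC and the GAAA repeat, on the opposite strand in PSME1. PSMD10 holds CCAAT on the opposite strand and none of the other 4. The gene bodies lie at chr14:23025851-23035220 (PSMB5), chr6:32854192-32859851 (PSMB9), chr6:32840717-32844679 (PSMB8), chr16:67934506-67936850 (PSMB10), chrX:108084207-108091542 (PSMD10), chr14:24136194-24138962 (PSME1) and chr14:24143365-24146610 (PSME2). PSMB8 and PSMB9 lie close together in the major histocompatibility complex, and PSME1 and PSME2 lie close together on chromosome 14.

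Micromolar exposure for 48 h addressed the response to a short, high dose. No member passed the test at any dose (0 of 41 with limma, adjusted p under 0.05, which called 0% of 12233 genes at each dose), and none had an unadjusted p under 0.05. Over all genes, an unadjusted p under 0.05 was reached by 6 genes at 1 µM (0.0409% higher and 0.00817% lower), 345 at 10 µM (0.883% higher and 1.94% lower) and 244 at 100 µM (0.703% higher and 1.29% lower), and edgeR called 0 genes at each dose while DESeq2 called 1, 1 and 0. The members' median log2 fold change was −0.06 at 1 µM, 0.29 at 10 µM and 0.29 at 100 µM, beside −0.01, 0.01 and 0.03 over all tested genes. At 100 µM this median became −0.01 when libraries were scaled to total reads, where that of all genes became −0.26, so the members lay 0.25 above the median gene with either scaling. At 10 µM it became −0.06 without replicate 3, the library that stood apart.

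At 100 µM the largest values by role were those of the inducible beta subunits (median log2 fold change 0.54, 3 of 3 higher) and the constitutive beta ring (0.47, 6 of 7 higher), while the 3 chaperones of base assembly had −0.37. PSMB5, the chymotrypsin-like subunit and the main target of bortezomib, had normalised counts of 4573, 3787 and 5739 in the control libraries, 4418, 3122 and 6184 at 1 µM, 7605, 3063 and 18799 at 10 µM and 10398, 15172 and 4206 at 100 µM. The first 2 replicates at 100 µM lay above every control and the other one among them, so the groups overlap, and the log2 fold change was 0.91 ± 0.62 (SE, limma adjusted p = 0.993). PSMB10 behaved alike, with 795, 622 and 1125 in the controls and 1633, 2548 and 583 at 100 µM. Its log2 fold change was 0.71 ± 0.70.

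The exposed and control libraries did not overlap at 100 µM for 3 members that were higher, PSMA4, PSMC1 and PSMD1, and for 0 that were lower, against 4.32% and 6.46% of all tested genes. PSMA4, an alpha subunit, had 2728, 2237 and 2373 in the controls and 3614, 3213 and 3325 at 100 µM, a log2 fold change of 0.47 ± 0.26. PSMD1, a scaffold of the base, had 2227, 2141 and 1605 and 2536, 2334 and 2446, a log2 fold change of 0.31 ± 0.21. PSMA5, also of the alpha ring, had 0.52 ± 0.35 and PSMD11, a lid subunit, −0.37 ± 0.25, both with overlapping groups. The limma adjusted p was 0.993 for all 4 of PSMA4, PSMD1, PSMA5 and PSMD11. PSMB6, PSMB7, PSMB8, PSMB9 and PSME1 had log2 fold changes of 0.48, 0.68, 0.47, 0.54 and 0.57, and PSME2 had −0.02. These values depended on single libraries: without replicate 2 of 100 µM PSMB5, PSMB10, PSMB6, PSMB7, PSMB8, PSMB9 and PSME1 had 0.51, 0.25, 0.21, 0.40, 0.19, 0.27 and 0.30, and without replicate 3 they had 1.44, 1.31, 0.88, 1.12, 0.92, 1.00 and 0.99. PSMD1 had 0.16 without replicate 3 of the control.

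At 10 µM the members with the smallest unadjusted p were PSMD10, PSMD7, PSMA6 and PSMD1. PSMD10, also called gankyrin, is a chaperone of the ATPase ring that also binds cell cycle regulators. It had 3784, 4006 and 2185 in the controls and 1232, 4356 and 212 at 10 µM. Its log2 fold change of −1.62 ± 0.86 (SE, limma adjusted p = 0.96) rested on replicate 3 and was −0.47 without it. PSMD7, the inactive partner of the lid deubiquitinase, had 2436, 2251 and 2228 against 1726, 2099 and 1293, with every exposed library below every control, and a log2 fold change of −0.46 ± 0.24, or −0.27 without replicate 3 of 10 µM. It was 1 member with non-overlapping, lower groups at 10 µM, where 3.52% of all genes had them, and 0 members were higher without overlap (2.67% of all genes). At 1 µM no member had non-overlapping groups (1.14% of all genes higher and 1.17% lower), and the 4 with the smallest p had log2 fold changes from −0.24 (PSMD3, a lid subunit) to 0.27 (PSMD12, also of the lid). The slope over the 4 doses was largest for PSMB5, at 0.35 ± 0.20 per dose step among the 4 with the smallest p, and 0 members passed (0% of all genes) or had an unadjusted p under 0.05 (1.37% higher and 2.88% lower of all genes).

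Nanomolar exposure for 6 weeks gave the largest values. At 10 nM the inducible and constitutive beta subunits were lower than in the controls, the chaperones PSMD10 and PSMD5 were higher, and the remaining classes lay between, although no member passed the test (0 of 41, limma, 0% of 12201 genes). The smallest adjusted p was 0.0953. Unadjusted p was under 0.05 for 2 members that were higher and 15 that were lower, where 21.8% of all genes were higher and 22.2% lower at that threshold (2659 and 2706 genes). The members' median log2 fold change was −0.46, beside 0.05 over all genes, and it turned to 0.14 with quantile normalization and to 0.21 with scaling to total reads, where the median of all genes became 0.72. Relative to the median gene the members thus lay 0.51 lower with the deposited scaling and with total reads, and 0.08 higher with quantile normalization. No library left out in turn changed the sign of this median (−0.63 to −0.35).

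The call itself depended on the test. With only the 6 libraries of 10 nM and control in the fit, limma called 4742 genes and 16 members, PSMD5 and PSMD10 higher and 14 lower (18.3% and 20.5% of all genes). DESeq2 on the recovered reads called 3706 genes and 13 members, all lower (19.3% of all genes lower and 11.1% higher). edgeR called 0 genes. The exposed and control libraries did not overlap for 3 members that were higher and 18 that were lower, against 30.6% and 29.8% of all genes. PSMD5, PSMD10 and PSMD11 were the 3 that were higher.

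The constitutive beta ring holds the catalytic subunits. Its 7 constitutive members had a median log2 fold change of −1.19, all 7 were lower, and 6 of them had libraries that did not overlap the controls. With quantile normalization 6 of 7 and with total reads 5 of 7 were lower. PSMB5 had 9542, 10341 and 5589 in the controls, 3345, 8006 and 10001 at 1 nM, 4550, 3138 and 3230 at 10 nM and 3515, 4021 and 4893 at 100 nM. All 6 libraries of 10 and 100 nM lay below all 3 controls, and replicate 1 of 1 nM lay with them. The log2 fold change of PSMB5 was −1.19 ± 0.40 (SE, limma adjusted p = 0.0953) at 10 nM and −0.998 ± 0.40 at 100 nM.

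PSMB6, which has caspase-like activity, had 11654, 7226 and 5870 in the controls and 4099, 2179 and 2793 at 10 nM, a log2 fold change of −1.44 ± 0.48. PSMB7 had 13735, 12086 and 7828 against 5873, 4042 and 3758, a log2 fold change of −1.29 ± 0.48. In both genes every 10 nM library lay below every control. PSMB3, a structural beta subunit, had 13326, 6545 and 5800 against 3974, 2199 and 2672, a log2 fold change of −1.48 ± 0.51 that was among the 4 with the smallest p, and its groups did not overlap either.

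The inducible subunits followed, with a median log2 fold change of −1.27 and 3 of 3 lower, also with quantile normalization and total reads. PSMB10 had 3010, 1391 and 1197 in the controls, 472, 2409 and 3116 at 1 nM, 658, 411 and 474 at 10 nM and 490, 721 and 1015 at 100 nM. The 10 and 100 nM libraries all lay below the controls, of which replicate 1 was more than 2-fold above the other two. Its log2 fold change at 10 nM was −1.76 ± 0.62, that of PSMB8 −1.10 ± 0.40 and that of PSMB9 −1.27 ± 0.47, without overlap in each.

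PSME1, the alpha subunit of the alternative cap, had the smallest p of all members. Its counts were 9176, 6740 and 5602 in the controls, 3124, 7151 and 7576 at 1 nM, 3868, 2731 and 2943 at 10 nM and 3239, 3852 and 5289 at 100 nM. Every library of 10 and 100 nM lay below every control, and the log2 fold change at 10 nM was −1.16 ± 0.37 (SE, limma adjusted p = 0.0953). PSME2, the beta subunit of that cap, had −0.82 ± 0.33 (adjusted p = 0.0974). The nuclear activators PSME3 and PSME4 had −0.06 and 0.30.

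The remaining classes were mixed. The base assembly chaperones had a median log2 fold change of 0.88 at 10 nM. PSMD10 had 815, 1354 and 2435 in the controls, 4207, 618 and 775 at 1 nM, 3906, 3771 and 4176 at 10 nM and 4064, 3683 and 2333 at 100 nM. The 10 nM libraries all lay above the controls and were close to each other, and replicate 1 of 1 nM was again at their level. PSMD5 had 314, 562 and 550 in the controls and 785, 951 and 815 at 10 nM, again without overlap. PSMD9, the chaperone with a PDZ domain, went the other way with −0.66. The non-ATPase subunits of the base had a median of −0.44, with 3 of 3 lower and 1 without overlap. The lid had a median of 0.13, with 5 of 8 higher, although 2 of its lower members did not overlap the controls and the lowest had −1.59. The ATPase ring had −0.48, with 4 of 6 lower, 3 of them without overlap, and the alpha ring −0.27, with 6 of 7 lower. For the alpha ring the sign turned with quantile normalization (0.24) and with total reads (0.40). With total reads the median of all genes rose as well and lay above that of the alpha ring. Relative to the median gene, the alpha ring thus changed direction only with quantile normalization.

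**Figure D1:**
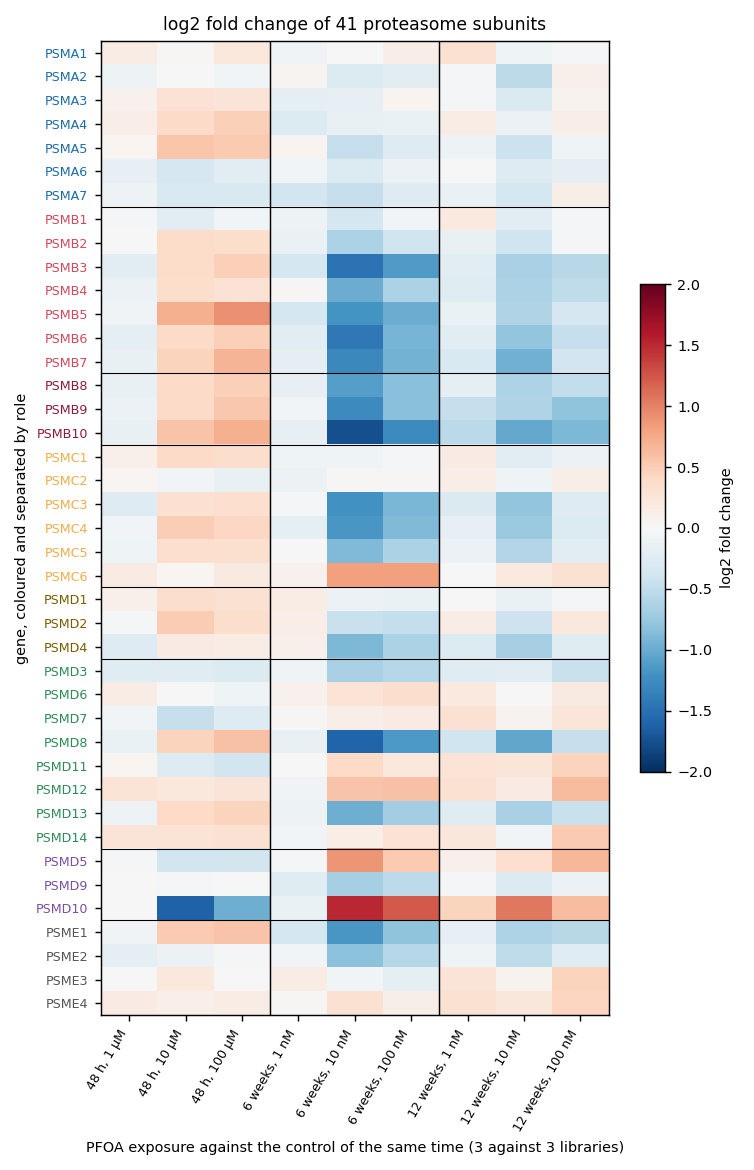
Log2 fold change (colour) of the 41 tested members (vertical axis, by role) at each of 9 exposures against the control of the same time (horizontal axis). At 6 weeks and 10 nM the constitutive beta ring (median −1.19) and inducible subunits (−1.27) lie below 0 and the assembly chaperones (0.88) above. The alpha ring (−0.27) has 0.40 when libraries are scaled to total reads, where the median of all genes lies higher still.

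At 100 nM the median of each class had the same sign as at 10 nM. The constitutive beta ring had a median log2 fold change of −0.94, the inducible subunits −0.84, the assembly chaperones 0.52, the ATPase ring −0.33, the non-ATPase base −0.47 and the lid 0.19, beside −0.25 over all members and 0.04 over all genes. The members' median was 0.15 with quantile normalization, 0.30 with total reads and −0.41 without replicate 3 of the control. Scaling to total reads shifts all genes of a library by a common factor, so the median of all genes moves with that of the members. Comparisons at 10 and 100 nM use the same 3 controls. No member passed (0 of 41, limma, 0% of 12201 genes), 0 members were higher and 2 lower at an unadjusted p under 0.05 (5.66% and 6.49% of all genes), and groups did not overlap for 1 higher member, PSMD7, and 18 lower members (22.9% and 24.4% of all genes). PSMB3 had −1.14 ± 0.51, PSME1 −0.80 ± 0.37, PSMB8 −0.84 ± 0.40, PSMB6 −0.94, PSMB7 −0.95, PSMB9 −0.83, PSMB10 −1.27 and PSME2 −0.58. edgeR called 0 genes at 100 nM and DESeq2 called 3, none of them a member.

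At 1 nM no member passed (0% of all genes), none had an unadjusted p under 0.05 (31 genes did, 0.107% higher and 0.148% lower), and no member had non-overlapping groups (0.754% of all genes higher and 0.557% lower). The members' median log2 fold change of −0.07 turned to 0.14 without replicate 1. PSMA7 had −0.38 ± 0.27, and PSMB5 had −0.35, which became 0.13 without that library. The slope over the 4 doses had a median of −0.13 per step in the members and 0.02 in all genes, and turned to 0.05 with quantile normalization and 0.10 with total reads (0.24 in all genes). PSMB5 had the smallest p, with −0.38 ± 0.13 (SE, limma adjusted p = 0.0979) per dose step, and no member passed (0% of all genes). An unadjusted p under 0.05 was reached by 2 members that were higher and 14 that were lower (21.6% higher and 23.1% lower of all genes). Leaving out replicate 1 of 1 nM gave 7084 genes with a slope past the threshold, 21 members among them, PSMC6, PSMD5 and PSMD10 higher and 18 lower (28.9% and 29.1% of all genes). DESeq2 on all 12 libraries called 3174 genes and 13 members, all lower (20.9% of all genes lower and 5.1% higher).

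The composition of the libraries moved with these values. At 6 weeks cytosolic ribosomal protein transcripts took 17.2% to 19.4% of reads in the controls and 9.38% to 13.4% at 10 nM, and mitochondrially encoded transcripts 9.24% to 11.4% and 5.99% to 7.82%. The size factors of the deposited values were 0.619 to 0.989 in the controls, 1.155 to 1.357 at 10 nM and 1.078 to 1.303 at 100 nM. The summed count of the 8 epithelial markers was 74311 to 142698 in the controls and 20579 to 40900 at 10 nM, and that of the 12 endothelial markers 36634 to 81920 and 25473 to 30749. The 8 fibroblast or smooth muscle markers, of which 3 had a mean of at least 10 and DCN and COL1A2 lay at or near 0, summed to 552 to 844 and 279 to 438, and the 7 leukocyte markers with values to 2420 to 7647 and 2258 to 3121. Of these 4 lists, only the leukocyte sums overlapped between the groups. These sums are of normalised counts, so they depend on the size factors given above. The largest means at 6 weeks were those of ENG (18188) among the endothelial markers and of KRT18 (27217), KRT7 (23163) and KRT8 (16998) among the epithelial ones. The part of the 4 lists in the result was not tested. When the score on the first component was added to the fit, the members' median at 10 nM was −0.09, PSMB10 had −0.05 and PSMD10 −0.02. The 10 nM and control libraries do not overlap on that component, and its part in the result was not tested.

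The members' fold changes varied with the GC content of their transcripts. The 21 members with a GC content of 49.9% to 60.1% were all lower at 10 and 100 nM at 6 weeks (17 of them at 1 nM), with a median log2 fold change of −1.10 at 10 nM and −0.80 at 100 nM. Of the 20 members with 36.8% to 48.7%, 11 were higher and 9 lower at 10 nM. Role and GC content went together in part. The inducible subunits had 54.9% to 60.1%, and all constitutive beta subunits except PSMB1 and PSMB2 lay in the group with higher GC content. Among the chaperones, PSMD5 and PSMD10, which were higher, had 41.2% and 41.5%, and PSMD9, which was lower, had 51.7%. The separate parts of role and GC content in the result were not tested. Across the 41 members the Pearson correlation of fold change with GC content was −0.776 at 10 nM, beside −0.695 over 11767 genes, so the relation was not limited to proteasome genes. It was −0.792 at 100 nM and −0.268 at 1 nM of 6 weeks (all genes −0.693 and −0.300), and −0.640, −0.664 and −0.716 at 1, 10 and 100 nM of 12 weeks (all genes −0.575, −0.583 and −0.686). At 48 h it was −0.705 at 1 µM (all genes −0.526), but 0.308 at 10 µM and 0.326 at 100 µM (all genes 0.252 and 0.227). These correlations are across genes of the same libraries, and genes are not independent replicates. After each library was regressed on GC content and transcript length, the members' median at 6 weeks and 10 nM was −0.36 beside −0.04 over all genes, the constitutive beta ring had −0.62 with 6 of 7 lower, and 0 members passed.

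Comparisons without shared libraries were set side by side as a description. Across members, fold changes at 48 h and 100 µM against those at 6 weeks and 10 nM had r = −0.710, and 29 of 41 had opposite signs. Over all genes r was −0.634, and 70.8% had opposite signs. Fold changes at 10 nM had r = 0.958 between 6 and 12 weeks across members and 0.922 over all genes.

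At 12 weeks the beta subunits were again lower at 10 nM, with wide spreads between libraries. No member passed at any dose (0 of 41, limma, 0% of 12304 genes at each dose), and none had an unadjusted p under 0.05, which 24 genes reached at 1 nM (0.0894% higher and 0.106% lower), 168 at 10 nM (0.78% higher and 0.585% lower) and 287 at 100 nM (0.878% higher and 1.45% lower). DESeq2 called 0, 2 and 1 genes and no member, and edgeR called 0. The members' median log2 fold change was −0.04, −0.35 and −0.08 with rising dose, beside 0.00, 0.02 and 0.00 over all genes. At 10 nM it was 0.03 with scaling to total reads, which shifts all genes of a library alike. At 100 nM it became 0.11 without replicate 3 of 100 nM and −0.0355 without replicate 2 of the control, and at 1 nM it became 0.0705 without that control.

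At 10 nM all 7 constitutive beta and all 3 inducible subunits were lower with the deposited scaling, with medians of −0.64 and −0.61, and every one of them overlapped the controls. PSMB7 had the smallest p, with 10975, 12776 and 6284 in the controls and 10010, 3999 and 2956 at 10 nM. Replicate 1 of 10 nM lay among the controls and the other two below them, and the log2 fold change was −0.97 ± 0.54 (SE, limma adjusted p = 0.655). PSMD8 had −1.04 ± 0.62, PSMB10 −1.03 ± 0.63 and the ubiquitin receptor PSMD4 −0.66 ± 0.42. Without replicate 2 of the control PSMD8, PSMB10 and PSMD4 had −0.53, −0.56 and −0.31, and PSMB7 had −1.48 without replicate 1 of 10 nM and −0.60 without replicate 3. No member had non-overlapping groups at 10 nM (2.06% of all genes higher and 1.22% lower).

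At 100 nM the inducible subunits were lower in 3 of 3 cases (median −0.80). PSMB9, the inducible partner of PSMB6, had 724, 1209 and 573 in the controls, 428, 724 and 626 at 1 nM, 1138, 373 and 333 at 10 nM and 558, 547 and 308 at 100 nM. Every 100 nM library lay below every control, the log2 fold change was −0.80 ± 0.47 (SE, limma adjusted p = 0.751), and replicate 2 of the control was the highest of the 12 libraries. Its groups were the 1 lower case without overlap among members (2.57% of all genes), and 3 members, PSMD5, PSMD7 and PSMD11, were higher without overlap (2.07% of all genes). PSMD11 had 960, 945 and 1127 against 1366, 1169 and 1596 and a log2 fold change of 0.44 ± 0.25, and PSMD5 had 519, 269 and 530 against 571, 601 and 846 and 0.66 ± 0.41. PSME3, which caps nuclear proteasomes, had 0.45 ± 0.31 with overlap. PSMB10 and PSMB8 had −0.90 and −0.48, PSMB5, PSMB6 and PSMB7 −0.33, −0.46 and −0.38, and PSME1 and PSME2 −0.56 and −0.24. Without replicate 2 of the control, the library that stood apart, PSMB10, PSMB9, PSMB8, PSMB5, PSMB6, PSMB7, PSME1, PSME2 and PSMD5 had −0.44, −0.50, −0.16, −0.12, −0.0889, −0.17, −0.29, −0.0206 and 0.34. Without replicate 3 of 100 nM PSMB10 had −0.40 and PSME1 −0.28, while PSMB5, PSMB7 and PSME2 were above 0.

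At 1 nM the 2 members without overlap were both higher lid subunits (1.66% of all genes higher, 0.805% lower). PSMD7 had 2482, 2236 and 2780 in the controls and 2952, 3541 and 2823 at 1 nM, and PSMD11 had 960, 945 and 1127 and 1179, 1211 and 1252. Their log2 fold changes were 0.31 ± 0.24 and 0.27 ± 0.25. PSMA1 and PSME4, next in p, had 0.31 and 0.30, or 0.0896 and 0.14 without replicate 2 of the control. The slope over the 4 doses had no member past the threshold (0% of all genes) or with an unadjusted p under 0.05 (0.967% higher and 1.25% lower of all genes), and the smallest p was that of PSMD5, with 0.22 ± 0.13 per dose step, or 0.12 without replicate 2 of the control.

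Whether the dose effect differed between 6 and 12 weeks was tested on the difference of log2 fold changes, in 12037 genes. No member passed at 1, 10 or 100 nM (0%). An unadjusted p under 0.05 was reached by 25, 42 and 68 genes (0.0914% higher and 0.116% lower, 0.183% higher and 0.166% lower, and 0.183% higher and 0.382% lower) and by 0 members. edgeR called 0 genes and DESeq2 2, 1 and 1, none of them a member. At 100 nM the effect at 12 weeks minus that at 6 weeks had a median of 0.25 in the members, with 35 of 41 above 0, and −0.01 in all genes, and the members' median became −0.01 with total reads, where that of all genes became −0.27. PSME3 had the smallest p, with 0.64 ± 0.35 (SE, unadjusted p = 0.0833, limma). At 10 nM the median was 0.13, which turned to −0.13 with quantile normalization and −0.16 with total reads (−0.29 in all genes), and PSMB3 had 0.83 ± 0.80, or 0.30 without replicate 1 of 10 nM at 12 weeks and 1.33 without replicate 2 of its control. At 1 nM it was 0.05, which turned to −0.24 without replicate 1 of 1 nM at 6 weeks, and PSMD7 had 0.29 ± 0.24.

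The share of reads and ratios within a library do not depend on the size factors. The members together took 0.572% to 0.913% of the reads of a library. At 6 weeks the share was 0.822% ± 0.0808 (SD, n = 3) in the controls, 0.782% ± 0.0617 at 10 nM and 0.820% ± 0.0214 at 100 nM. In 9 exact permutation tests of each dose against its control (two-sided, n = 3 against 3) p ran from 0.3 to 1, and was 1 in all after adjustment, and the design cannot give a p below 0.1. The share correlated with the mitochondrially encoded share over 36 libraries (r = 0.501, rho = 0.483, permutation p = 0.00172 and 0.00327, 0.0206 and 0.0392 after adjustment over 12 relations). Without the 2 libraries farthest from the median r was 0.465. Within 48 h, 6 weeks and 12 weeks r was 0.483, 0.513 and 0.663, and none passed after adjustment (smallest permutation p = 0.081 adjusted). The pooled share hides classes that moved in opposite directions. At 6 weeks PSMB5, PSMB6 and PSMB7 together took 0.101% to 0.142% of reads in the controls and 0.0683% to 0.0900% at 10 nM. The inducible subunits took 0.0235% to 0.0283% and 0.0136% to 0.0191%, and the PSMD genes 0.244% to 0.254% and 0.264% to 0.278%. None of these ranges overlapped, while those of the whole core, the ATPases and the activators did.

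The other ratio set each inducible subunit against the constitutive subunit whose place it takes. None of 27 tests passed after adjustment (smallest adjusted p = 0.6). The log2 ratio of PSMB8 to PSMB5 was −1.73 ± 0.0624 (SD, n = 3) in the 48 h controls and −2.17 ± 0.204 at 100 µM, and the groups did not overlap (exact permutation p = 0.1, the smallest possible). The log2 ratio of PSMB9 to PSMB6 at 6 weeks was 0.17 higher at 10 nM than in the controls, and at 12 weeks it was lower by 0.35 at 100 nM, again without overlap and with an exact permutation p of 0.1 each. At 12 weeks the doses differed in direction, as its mean was −3.04 in the controls, −3.29 at 1 nM, −2.86 at 10 nM and −3.39 at 100 nM, and the groups at 1 and 10 nM overlapped the controls. In the rest of the 27 tests the groups overlapped as well.

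Levels at different times come from separate tables and are compared as CPM, recovered reads divided by the library total, without a test. The exposure times also differ in how cells were collected, in the dish at 48 h and while being passaged later. PSMD1 had 83.2 to 158 CPM over the 12 libraries of 48 h and 86.5 to 187 over those of 6 weeks, but 39 to 79.5 at 12 weeks. PSMD3, a scaffold of the lid, had 110.3 to 205, 116 to 192 and 41.1 to 97. In both, all 12 libraries of 12 weeks lay below all libraries of the earlier times, whatever the dose. They were 2 of 41 members with this pattern against 6 weeks (1.85% of all genes) and against 48 h (2.23%), and 0 members were higher without overlap (1.2% and 1.78%). Between 6 weeks and 48 h 0 members differed in this way (0.166% of all genes higher and 0.323% lower). PSMB9 had 44.6 to 86.6, 42.3 to 98.9 and 20.9 to 45.9 CPM, with a slight overlap, while the log2 ratio of PSMB9 to PSMB6 spanned −2.10 to −1.76 (48 h), −2.22 to −1.86 (6 weeks) and −3.63 to −2.71 (12 weeks).

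How tightly the members were held within a group also differed by gene. The median SD of log2 counts within groups was 0.39 at 48 h, 0.46 at 6 weeks and 0.52 at 12 weeks for the members, and 0.50, 0.50 and 0.54 over all genes. PSMD7 had the lowest of all members at 6 weeks (0.09) and at 12 weeks (0.13), and its highest library at 6 weeks was 1.31-fold its lowest. PSMD10 had the highest at 48 h (1.20), with a range of 20.5-fold between its lowest and highest library at that time. PSMB10 had 0.98, 0.88 and 0.90, and a range of 7.41-fold, 7.58-fold and 7.12-fold. Of the 41 members, 22 had their highest 48 h count in replicate 3 of 10 µM and 21 their lowest in replicate 2 of the same group.

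A list of 41 further genes covered assembly chaperones of the core, proteasome-associated ubiquitin enzymes and shuttle factors, transcriptional regulators and antigen processing. All 41 were tested at each time, and 0 passed in either direction in any comparison (limma). At 6 weeks and 10 nM 19 were higher and 22 lower, with a median log2 fold change of −0.11, and 10 higher and 16 lower did not overlap the controls (24.4% and 39.0% of the list, against 30.6% and 29.8% of all genes). At 100 nM 20 were higher and 21 lower, with 8 and 14 without overlap (19.5% and 34.1%, against 22.9% and 24.4%). ZFAND5, which binds and stimulates the proteasome, had 309, 448 and 604 in the controls, 931, 1204 and 1190 at 10 nM and 1055, 930 and 716 at 100 nM. All exposed libraries lay above the controls, with log2 fold changes of 1.33 ± 0.41 and 1.02 ± 0.41. UBE3C, a ubiquitin ligase of stalled substrates on the proteasome, had 1.18 ± 0.40 at 10 nM, and DDI2, the protease that activates NFE2L1, had 0.97 ± 0.43 at 100 nM.

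At 48 h and 100 µM UFD1, a cofactor of the segregase VCP, had −0.46 ± 0.18, TAP2, a peptide transporter of antigen presentation, −0.45 ± 0.23, and NFE2L1, the transcription factor that raises subunit genes when the proteasome is inhibited, −0.57 ± 0.34. At 12 weeks and 100 nM UCHL5, a deubiquitinase of the base, had 0.98 ± 0.52, AKIRIN2, which brings proteasomes into the nucleus, 0.55 ± 0.30, and NLRC5, an activator of class I antigen presentation genes, −0.48 ± 0.32. Without replicate 2 of the control these became 0.28, 0.29 and −0.23. Of the list, ZFAND2A and SQSTM1, both known to be induced by proteotoxic stress and chosen here after their values were seen, were higher in all 12 libraries of 12 weeks than in all of the earlier times. They were the only genes of the list without overlap between times, in either direction. Over all genes, 1.2% were higher in this way against 6 weeks and 1.78% against 48 h. ZFAND2A had 7.43 to 12.8, 8.55 to 13 and 16.7 to 23.6 CPM, and SQSTM1 had 488 to 679.8, 376 to 541 and 713 to 1065.

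Of the 43 members, 18 overlap another annotated gene, and 5 overlap one with values: PSMC1 (NRDE2), PSMC2 (PMPCB), PSMC5 (FTSJ3), PSMD1 (HTR2B) and PSMD10 (ATG4A). Whether the counting used strand is not given in the sources used here, so reads of these pairs could be shared and their values are less certain.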

How the data were processed

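The authors deposited 1 table of a signal per gene for each exposure time, that is, counts of reads after division by the library's size factor, and 18048 genes hold values. HISAT, Bowtie2, DESeq2 and GRCh38.p14 are named in the submitters' processing notes, without versions. The counting tool is not given in the sources used here. At 6 weeks 1 entry without a gene name was left out. Every library had its own smallest step, and dividing by it gave back whole reads (100% of values to within 0.01). The design assumed such values, and edgeR 4.0.16 and DESeq2 1.42.0 were run on the recovered reads as alternatives.

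Groups were compared on log2(signal + 1), which makes fold changes of low genes too small, with limma 3.58.1 (R 4.3.3; trended prior). Each fit used 12 libraries and genes whose mean reached 10. Tests were two-sided, with Benjamini-Hochberg adjustment over all tested genes and a threshold of 0.05. Shares and ratios were tested with exact permutation tests over libraries (Python 3.11.15, scipy 1.17.1). GC content and length were read from each gene's longest protein-coding transcript among those marked as principal in GENCODE release 29. The fit was run on simulated counts drawn with the same dispersion for all genes and no axis shared between libraries, unlike these data. That run therefore cannot show how the fit behaves on these libraries.

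The members, the further list, the roles and the markers were chosen with earlier results of these data known. Fold changes were given for the 4 members with the smallest unadjusted p in each of 15 comparisons, for PSMB5 to PSMB10, PSME1 and PSME2 in 4 comparisons, and for the 3 genes of the further list with the smallest p in those 4. The values of 1 gene of that list are not reported here. Levels could be named for any member. Values outside this rule, such as non-overlapping members, PSMD5, PSMD10, PSMD9, PSME3 and PSME4 at 6 weeks, were chosen after they were seen. Alternatives were pseudocounts of 0.1 and 10, no filter, a mean of at least 50, quantile normalization, the first principal component as a covariate, a replicate block, only the groups compared, and each library left out. The correction for GC content and length and the scaling to total reads were chosen after seeing the data.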

Additional observations from a re-analysis of the deposited data

How the results depend on the processing

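With limma under pseudocounts of 0.1 and 10, no filter, a mean of at least 50 and the principal component, and with edgeR, 0 members and 0 genes passed, as in the main test. DESeq2 called 3706 genes and 13 members at 6 weeks and 10 nM, and 3174 genes and 13 members for the 6-week slope. It called 1 gene each at 1 µM, 10 µM and 12 weeks 100 nM, 2 at 6 weeks 1 nM, 12 weeks 10 nM and for the 12-week slope, 3 at 6 weeks 100 nM, and 2, 1 and 1 for the differences between times. With only the groups compared limma called 4742 genes and 16 members at 6 weeks and 10 nM. The GC correction gave 2 genes there and 2 for the slope, and quantile normalization gave 1 for the slope. Leaving out each library gave 0 to 1 genes at 6 weeks 1 nM, and 0 to 7084 genes and 0 to 21 members for the 6-week slope. The cause of these differences was not tested.

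The members' median log2 fold change moved beyond replicate spread with scaling to total reads, to −0.0125 at 100 µM, −0.0307 for the 48 h slope, 0.21 and 0.30 at 6 weeks 10 and 100 nM, 0.10 for the 6-week slope and 0.0320 at 12 weeks 10 nM. That scaling shifts all genes of a library by a common factor, so the median of all genes moves as well. Quantile normalization gave 0.14, 0.15 and 0.0548 for the same 6-week results. Single genes turned sign: with the GC correction PSME2 (0.0696, 0.0621 and 0.16 at 6 weeks 10 and 100 nM and 12 weeks 100 nM); with the principal component PSMB10, PSMB6 and PSMB9 (0.0316, 0.00564 and 0.11 at 6 weeks 100 nM), PSMB10 (0.00166 for the slope), and PSMB5, PSMB6, PSMB7, PSMB8 and PSME2 (0.27, 0.15, 0.19, 0.0503 and 0.12 at 12 weeks 100 nM); with total reads PSME2 (0.0524 there). Leaving out each library gave PSME2 −0.17 to 0.12 at 100 µM, PSMB5 −0.66 to 0.13, PSMD9 −0.50 to 0.0228 and PSME1 −0.57 to 0.0674 at 6 weeks 1 nM, and PSMB5 −0.79 to 0.0838, PSMB7 −0.85 to 0.0924 and PSME2 −0.38 to 0.0297 at 12 weeks 100 nM. With reads outside mitochondrially encoded and ribosomal protein genes as the denominator, the members' share differed from the control by 0.0773 percentage points at 100 µM, and by −0.195, −0.103 and −0.140 at 6 weeks 10 and 100 nM and 12 weeks 10 nM. The cause was not tested. Over all alternatives, 1827 recomputed values of single genes kept their direction and side of the threshold, 21 turned direction and 30 newly passed. Of the values of comparisons, 1198 were counted as unchanged and 35 as moved, where a median that turned sign within the replicate spread counted as unchanged. The members' median turned sign in 7 of 15 comparisons with quantile normalization, 5 with the principal component and 12 with total reads. It did so in 2 with DESeq2, 1 with edgeR and 0 with the GC correction.

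Correlations of deviations between libraries of the same replicate number ran from −0.892 to 0.892 over 54 pairs, and 20 exceeded 0.1. With 3 libraries per group that differ mainly along 1 axis, they cannot decide whether replicate numbers pair the libraries. At 48 h, among the control, 1 µM and 10 µM, replicate 2 correlated at 0.807 to 0.892 and replicate 3 at 0.667 to 0.792. Against 100 µM these replicates had −0.892 to −0.516, and replicate 1 had −0.322 to 0.386 over all its 48 h pairs. A replicate block gave 0 genes and 0 members in each comparison. PSMA8 and PSMB11, with 1 and 9 reads over the 36 libraries, were too low to test.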
